A study of Mus musculus with 18 samples.

Results

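The mouse testis was compared between day 40 and day 60 after birth, over all genes and over both genotype labels of a Plin1 study. The comparison used 12 of the 18 arrays of the series: 6 arrays of day 60 and 6 of day 40, each made of 3 arrays labelled wild type and 3 labelled plin1 knockout. The labels call day 40 puberty and day 60 the mature phase, and name neither strain, nor the knockout allele, nor whether each array came from its own animal. The p-values below therefore measure the spread between these arrays, which may in part be technical. The question was what still changes in the testis once the first germ cells have completed meiosis, and whether it changes alike under both labels.

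Sperm form in the seminiferous tubules, where spermatogonia divide, spermatocytes pass through meiosis, and haploid round spermatids elongate into sperm. During elongation, histones are replaced first by transition proteins and then by protamines, and the tail with its fibrous sheath and outer dense fibres is built. Sertoli cells nurse the germ cells, and Leydig cells between the tubules make testosterone from cholesterol. In whole-tissue RNA, fewer cells of a type and less RNA per cell cannot be told apart.

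The 75th percentile of the processed signal was 2550 to 3117 on the day 40 arrays and 2245 to 2504 on the day 60 arrays, so the raw brightness of the ages did not overlap. Between 79.5% and 86.0% of spots were well above background. A level below is a log2 signal after subtraction of that percentile, and a gene at level 0 is as bright as it. The first principal component carried 27.0% of the variance, and all 6 day 60 arrays lay on its negative side (-28.5 to -13.4). Of the day 40 arrays, 5 lay between 19.8 and 48.0 and wild-type replicate 1 lay at -6.37. The arrays came from 3 slides. Of these, 1 slide held both ages, with 2 day 60 arrays labelled knockout and 2 day 40 arrays labelled wild type, so within it age and label cannot be told apart. Another held day 60 arrays alone and the third day 40 arrays alone. No slide held both ages of the same label, so under each label age and slide cannot be told apart. Plin1, the lipid droplet coat protein named in the labels, was at -0.22 to 0.17 on the 6 arrays labelled knockout and at -3.06 to -2.16 on the 6 labelled wild type. The labels are therefore used below as names only. Plin1 did not differ detectably between the ages, with a difference of -0.12 (SE 0.15, limma adjusted p = 0.657).

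Of 34409 tested probes, 2772 (8.06%) differed between the ages at an adjusted p under 0.05, with 1317 (3.83%) higher and 1455 (4.23%) lower at day 60. By gene, taking the brightest tested probe of each, 1415 of 16686 genes (8.48%) changed, of which 841 (5.04%) rose and 574 (3.44%) fell. Most changes were small: 20 probes (0.0581%) rose and 94 (0.273%) fell by 2-fold or more. In 590 genes (3.54%) all 6 day 60 arrays lay above all 6 day 40 arrays, and in 164 (0.983%) all lay below. The median difference of all genes was -0.01. From day 21 to day 40, by contrast, 71.8% of genes passed the same threshold, 20.9% upwards and 50.8% downwards. That interval shares the day 40 arrays, and its values appear below only side by side.

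The difference between the ages moved with the brightness of the gene. Among the 1265 genes dimmer than a level of -6, the median difference was -0.20, and 9.8% fell against 1.19% that rose. Among the 135 genes brighter than a level of 6, the median difference was 0.21, and 40.7% rose while 0 fell. The probes that fell had a median level of -4.67, and 16.5% of them were not above background on all 12 arrays. The probes that rose had a median level of 1.27, with 1.97% not above background throughout. The split of the calls followed the scaling: subtracting each array's median gave 2356 higher and 779 lower probes, quantile normalization gave 947 and 346, and normexp background correction gave 1998 and 517. The part of scanner brightness in these differences was not tested.

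**Figure D1:**
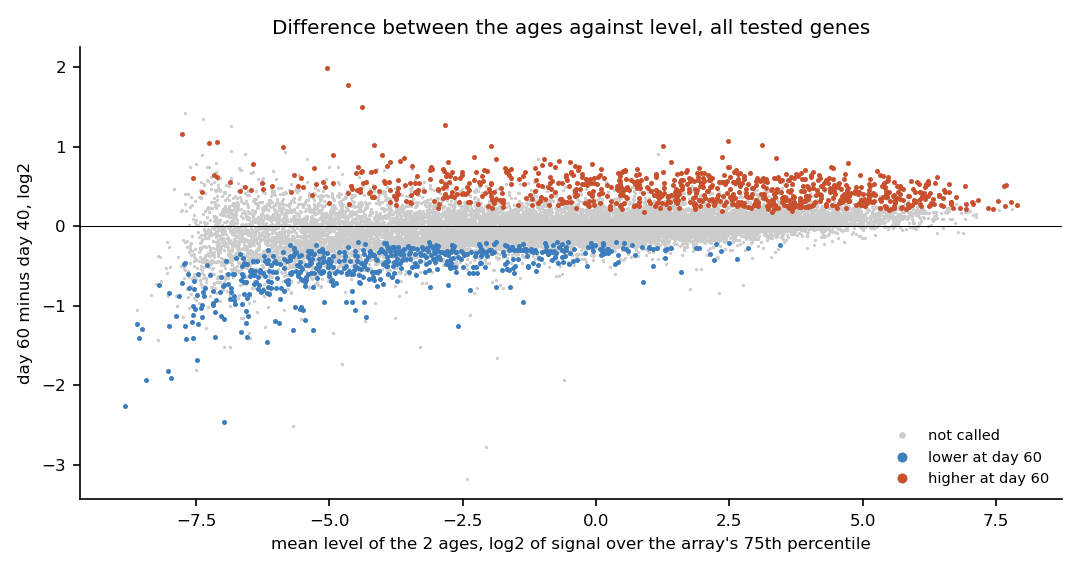
Difference between day 60 and day 40 (log2, vertical) against the mean level of the 2 ages (log2 signal over the array's 75th percentile, horizontal) for 16686 tested genes, with the 841 genes that rose in orange, the 574 that fell in blue and the rest in grey. The falls lie mostly among dim genes, and above a level of 6 no gene fell.

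The count of calls depended on single arrays. It rose to 4729 without day 40 wild-type replicate 1, the array at -6.37 on the first component. It was 815 without day 60 knockout replicate 3, 1074 without day 40 knockout replicate 3, 1235 without day 40 wild-type replicate 2 and 1418 without day 40 wild-type replicate 3. It lay between 1635 and 1747 when the left-out array was day 60 wild-type replicate 2 or 3, day 60 knockout replicate 2 or day 40 knockout replicate 2. With slide as a fixed block, limma called 0 probes, and 3262 had an unadjusted p under 0.05, against 9721 without the block. For this reason the difference within the slide that held both ages (2 arrays against 2, with no test) is given beside the main results.

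Most measured genes of elongating spermatids rose. Of the 29 measured members of a list of 32 such genes, 18 rose and 0 fell, against 5.04% and 3.44% of all genes. In 13 members all day 60 arrays lay above all day 40 arrays, as they did in 3.54% of all genes. The median difference was 0.37, with 26 members above 0. It was 0.40 in the arrays labelled wild type, 0.43 in those labelled knockout and 0.46 within the slide that held both ages. The mean level of the list was 5.23 at the lowest, 5.49 in the median and 5.61 at the highest of the day 40 arrays. On the day 60 arrays it was 5.77, 5.82 and 5.89, so every day 60 array lay above every day 40 array.

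The list holds the nuclear proteins that repackage sperm DNA. Tnp1, a transition protein, lay at 6.95, 7.50 and 7.65 (lowest, median and highest of 6 arrays) at day 40 and at 7.79, 7.92 and 8.11 at day 60. The ages did not overlap, and Tnp1 rose by 0.51 (SE 0.09, limma adjusted p = 0.0132). Tnp2, the other transition protein, went from 5.30, 5.80 and 6.11 to 6.10, 6.23 and 6.60, a rise of 0.55 (SE 0.10, adjusted p = 0.0127) in which the highest day 40 array just exceeded the lowest day 60 array. Prm1, a protamine, went from 7.61, 7.80 and 7.84 to 7.97, 8.03 and 8.11, a rise of 0.27 (adjusted p = 0.0234) with no overlap. With quantile normalization Prm1 differed by -0.0084 (adjusted p = 0.929). Prm2, the other protamine, differed by 0.22 (adjusted p = 0.0614) and did not pass. Among the linker histones of spermatids, H1f7 rose by 0.45 (adjusted p = 0.0217) and Hils1 by 0.30 (adjusted p = 0.0486).

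The list also holds genes of the sperm tail and of its energy supply, some of which rose. Akap4, the main anchoring protein of the fibrous sheath, rose by 0.55 (SE 0.09, adjusted p = 0.0103), and Gapdhs, the sperm form of glyceraldehyde-3-phosphate dehydrogenase, by 0.57 (SE 0.09, adjusted p = 0.00928). Odf2, of the outer dense fibres, rose by 0.30 (adjusted p = 0.0157), Smcp, of the mitochondrial capsule, by 0.50 (adjusted p = 0.0084), and Oaz3, the antizyme of spermatids, by 0.53 (adjusted p = 0.0121). The largest rises of the list were those of Car2, Fscn3 and Spata3. Car2, a carbonic anhydrase, went from 1.01, 1.23 and 1.53 to 1.71, 1.94 and 2.09, a rise of 0.68 (SE 0.10, adjusted p = 0.0084). Fscn3, a testis fascin that bundles actin, went from 4.26, 4.63 and 4.99 to 5.11, 5.30 and 5.38, a rise of 0.65 (SE 0.10, adjusted p = 0.00867). Spata3 went from 3.08, 3.28 and 3.59 to 3.77, 3.88 and 4.03, a rise of 0.58 (SE 0.10, adjusted p = 0.00983). In all 3 genes the ages did not overlap.

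Of the 29 members 11 did not pass, tail genes among them. The tektins of the axoneme, Tekt1, Tekt2 and Tekt4, differed by -0.04, -0.0047 and 0.07, and Akap3, Odf1 and Odf4 by 0.19, 0.30 and 0.21 without passing. The list is bright: 15 of its 29 measured members lay above a level of 6, where 12 rose with a median difference of 0.45, beside the median of 0.21 and the 40.7% that rose among all 135 genes of that brightness. Quantile normalization left 10 of the 29 called, with a median of 0.18. Without 1 array the number that rose ran from 14 to 21, and it was 0 with slide as a fixed block and with all 18 arrays in 1 limma fit, where the medians were 0.46 and 0.37.

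**Figure D2:**
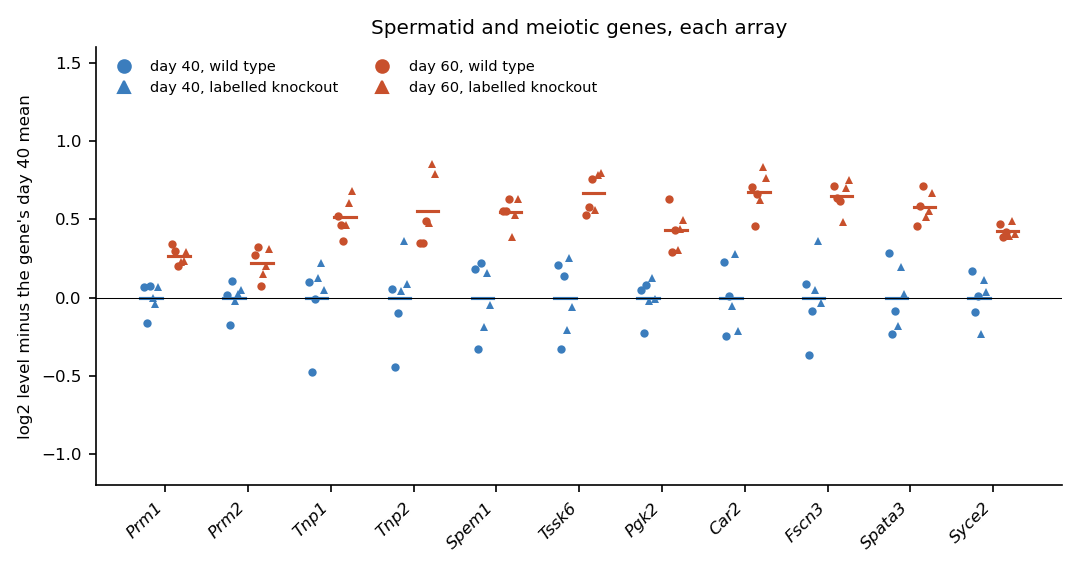
Level of 11 genes on each of the 12 arrays, as log2 level minus the gene's day 40 mean (vertical), in blue for day 40 and orange for day 60, with circles for arrays labelled wild type, triangles for arrays labelled knockout and a bar at the mean of each age. The day 60 arrays lie above all day 40 arrays in every gene shown except Prm2 and Tnp2.

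The promoters of these genes are shown because several spermatid promoters are known to bind CREM, a factor that recognises cyclic AMP response elements. Promoters came from RefSeq (build GRCm38.p6), with 250 bases before each annotated start searched on both strands. A form of that element with 1 free base, TGACNTCA, was found in 10 of the 26 measured elongating spermatid genes with an entry (38.5%). It was found in 7 of the 16 that rose (43.8%) and in 3 of the 10 that did not pass (30.0%). It was in 15.2% of all genes that rose, 6.38% of those that fell, 7.93% of the tested genes and 8.55% of all promoters. Of the 25 round spermatid genes with an entry, most of which did not pass, 52.0% held it. The exact form TGACGTCA, which overlaps TGACNTCA, was in 0 of the elongating spermatid promoters, 2.58% of the tested genes and 1.77% of all promoters. The other motifs searched follow, with their shares among the elongating spermatid genes that rose, the tested genes and all promoters, in that order. TGACG, which overlaps TGACGTCA, was in 25.0%, 26.4% and 19.8%, and TATAAA in 18.8%, 10.8% and 14.3%. CCAAT was in 25.0%, 39.5% and 37.5%, GGGCGG in 31.2%, 55.0% and 35.4%, and AGAACA in 12.5%, 14.6% and 18.2%. A match is a description of letters, not of binding. The last 120 bases before the start follow for 5 members that rose, with TGACNTCA in either strand's reading in capitals. They lie at chr7:30743682-30743801 (minus strand, Gapdhs), chr1:73015900-73016019 (minus, Tnp1), chr16:10796824-10796943 (minus, Prm1), chrX:7067395-7067514 (plus, Akap4) and chr1:86021825-86021944 (plus, Spata3).
Gapdhs: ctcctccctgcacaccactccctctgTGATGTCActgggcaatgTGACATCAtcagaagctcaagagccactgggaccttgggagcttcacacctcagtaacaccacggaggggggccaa
Tnp1: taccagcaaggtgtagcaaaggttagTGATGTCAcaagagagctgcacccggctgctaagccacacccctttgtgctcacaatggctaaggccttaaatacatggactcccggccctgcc
Prm1: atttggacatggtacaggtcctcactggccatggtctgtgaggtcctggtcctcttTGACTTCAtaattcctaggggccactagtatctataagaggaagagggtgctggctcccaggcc
Akap4: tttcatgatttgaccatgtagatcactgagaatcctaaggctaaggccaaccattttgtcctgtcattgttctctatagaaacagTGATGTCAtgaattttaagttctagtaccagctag
Spata3: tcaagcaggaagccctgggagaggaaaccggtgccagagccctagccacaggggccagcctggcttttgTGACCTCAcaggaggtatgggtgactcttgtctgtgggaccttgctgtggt
Gapdhs held the motif at 2 places, 94 and 76 bases before the start, and a second annotated start of that gene is not shown. The other 4 promoters held it once in the printed bases.

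Lists of earlier germ cells held fewer calls, and the difference between lists was not tested. Of 28 measured round spermatid genes, 5 rose and 0 fell, against 5.04% and 3.44% of all genes, with a median difference of 0.12 and 26 above 0. Within the slide that held both ages the median was 0.00 (14 of 28 above 0), with quantile normalization it was -0.01 and 2 rose, and without 1 array 2 to 6 rose. The 5 were Tssk6 (0.67, adjusted p = 0.0097) and Tssk2 (0.32, adjusted p = 0.0492), kinases of spermatids, Spem1 (0.55, adjusted p = 0.0128), which acts in shaping the sperm head and neck, Spata6 (0.31, adjusted p = 0.0489), of the connecting piece, and Klhl10 (0.31, adjusted p = 0.0457), part of a spermatid ubiquitin ligase. Tssk6 lay at 3.18, 3.55 and 3.76 on the day 40 arrays and at 4.04, 4.18 and 4.31 on the day 60 arrays, with no overlap. Of 24 genes of pachytene spermatocytes and the meiotic divisions, Pgk2 alone rose, by 0.43 (SE 0.08, adjusted p = 0.0131). Pgk2 is the phosphoglycerate kinase of meiotic and later germ cells, and went from 6.19, 6.43 and 6.54 to 6.70, 6.85 and 7.04. Of 21 early meiosis genes, Syce2 alone rose, by 0.43 (adjusted p = 0.00997), a central element protein of the synaptonemal complex.

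A few markers of dividing germ cells fell. Of 18 spermatogonia markers, 3 fell and 0 rose, against 3.44% and 5.04% of all genes, with a median of -0.12. Within the slide that held both ages the median was -0.0014, with 9 of 18 above 0. They were Lin28a, an RNA-binding protein of undifferentiated cells (-0.43, adjusted p = 0.0103), Ccnd2, a cyclin of the G1 phase (-0.46, adjusted p = 0.0250), and Egr4, a transcription factor (-0.43, adjusted p = 0.0188). Lin28a lay at -3.91, -3.64 and -3.62 at day 40 and at -4.33, -4.16 and -3.85 at day 60, with a small overlap. Of 27 cell cycle genes, Ccnd2 fell together with Mcm2 (-0.38, adjusted p = 0.0316) and Cdt1 (-0.39, adjusted p = 0.0388), both of which license DNA replication, and the list's median was -0.10 with 21 below 0, and -0.11 within that slide. Without 1 array, 1 to 4 of the spermatogonia markers and 0 to 6 of the cell cycle genes fell.

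Set beside the earlier interval, the rise of the elongating spermatid genes was small. From day 21 to day 40 the list's median difference was 3.40 and 28 of 29 members passed upwards, with the day 40 arrays shared by both intervals. The mean level of the list lay at 0.57 to 3.50 on the 6 day 21 arrays, where wild-type replicate 3 was the lowest. Round spermatid genes had medians of 1.98 and 0.12 over the earlier and the later interval. Extracellular matrix genes had medians of -0.83 and -0.38, and steroidogenic enzymes -0.30 and -0.04. In the steroidogenic list 6 members passed upwards and 11 downwards from day 21 to day 40. Its mean level over the arrays was 0.18 at day 21, 0.47 at day 40 and 0.38 at day 60. Over the earlier interval its mean level thus moved opposite to its median difference.

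**Figure D3:**
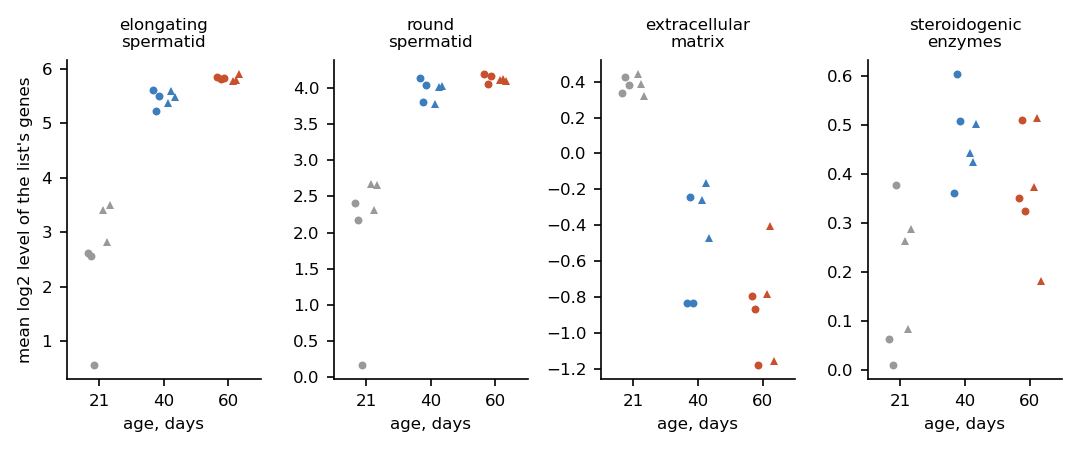
Mean log2 level (vertical, a scale of its own in each panel) of 4 gene lists on the 18 arrays at days 21, 40 and 60, with circles for arrays labelled wild type and triangles for arrays labelled knockout. The day 60 arrays lie above all day 40 arrays for elongating spermatid genes, while days 40 and 60 overlap for the other 3 lists.

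No gene of the steroid hormone list passed in the main fit, and Hsd3b1 lay near the threshold. Of 19 steroidogenic enzymes and cholesterol carriers, 0 passed in the limma fit (4 were lower at an unadjusted p under 0.05), the median was -0.04, and the sign of the median changed with median scaling (0.03). With normexp background correction 1 member fell, and without 1 array 0 to 1 fell. Hsd3b1, an enzyme that makes progesterone, came nearest, at 1.64, 2.18 and 2.56 on the day 40 arrays and 1.11, 1.71 and 1.87 on the day 60 arrays, a difference of -0.53 (SE 0.16, adjusted p = 0.056). Akr1c14, a hydroxysteroid dehydrogenase, differed by -0.25 (adjusted p = 0.0917). Of 29 alternatives, Hsd3b1 passed as lower in 6 and Akr1c14 in 2. Star, which carries cholesterol into mitochondria, differed by 0.18 (SE 0.20, adjusted p = 0.607), Cyp11a1, the side-chain cleavage enzyme, by -0.04 (adjusted p = 0.891), Cyp17a1 by 0.06 (adjusted p = 0.852) and Hsd3b6 by -0.13 (adjusted p = 0.515). Hsd17b3, the last step to testosterone, differed by -0.63 (SE 0.32, adjusted p = 0.214). It lay at 0.12 to 0.60 on the 3 day 40 arrays labelled wild type and at -1.72 to -0.31 on the other 9.

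Among 24 Leydig cell genes 1 rose and 1 fell, the median was 0.01, and the rise was that of Ptgds. Single calls here stand beside the 5.04% of all genes that rose and the 3.44% that fell. Ptgds, the lipocalin-type prostaglandin D synthase, went from 1.91, 2.64 and 3.19 to 3.48, 3.54 and 3.88, a rise of 1.02 (SE 0.16, adjusted p = 0.00881) with no overlap, and of 0.45 within the slide that held both ages. Lhcgr, the receptor for luteinizing hormone, differed by -0.44 (SE 0.22, adjusted p = 0.204). Insl3 had no tested probe under that symbol. Among 24 genes of the cholesterol synthesis list 1 rose and 3 fell, and the median was -0.08. Without 1 array 0 to 2 rose and 0 to 3 fell. Of its enzymes, Msmo1 fell (-0.50, adjusted p = 0.0376) and Pmvk rose (0.39, adjusted p = 0.0209). Of 21 lipid droplet genes, Lipe, the hormone-sensitive lipase, alone rose, from 0.99, 1.31 and 1.45 to 1.56, 1.78 and 1.91 (difference 0.47, SE 0.09, adjusted p = 0.0158).

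The tissue kallikreins of the Klk1 and Klk1b family, secreted proteases of which several are made by Leydig cells, were chosen as a group after their values were seen. Of 12 measured members, 8 rose and 0 fell, against 5.04% and 3.44% of all genes. All 12 differed upwards, with a median of 0.65, and 7 rose without overlap, against 3.54% of all genes. Klk1b16 went from 0.40, 0.79 and 1.06 to 1.47, 1.79 and 2.14 (difference 1.003, SE 0.13, adjusted p = 0.00669). Klk1b9 went from 1.62, 1.93 and 2.31 to 2.55, 2.81 and 3.09 (difference 0.87, SE 0.11, adjusted p = 0.00669). Klk1b1 had the highest difference, 1.78 (adjusted p = 0.0136), with overlap and at a low level. Klk1b24, Klk1b27 and Klk1b21, which stood on the Leydig cell list, differed by 0.27, 0.42 and 0.22 and did not pass. Within the slide that held both ages the median was 0.84 and 10 of 12 were above 0. From day 21 to day 40 the same 12 had a median of 3.99. The family consists of close copies, so probes may read more than 1 member, and the 8 calls are not separate observations. The likeness extends to most of the promoters, of which the 100 bases before the start are shown for 3 members (RefSeq, GRCm38.p6, plus strand, chr7:44137190-44137289, chr7:43975961-43976060 and chr7:43966651-43966750). Capitals mark a run of 15 bases, the longest that at least 9 of the 12 promoters shared.
Klk1b16: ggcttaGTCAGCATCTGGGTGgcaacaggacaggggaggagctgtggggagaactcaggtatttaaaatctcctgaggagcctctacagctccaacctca
Klk1b9: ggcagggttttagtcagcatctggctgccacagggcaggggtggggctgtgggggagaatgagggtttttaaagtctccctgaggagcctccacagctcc
Klk1b1: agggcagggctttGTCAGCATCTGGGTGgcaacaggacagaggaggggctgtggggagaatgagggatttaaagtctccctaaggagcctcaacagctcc
Klk1b9 lacks the exact run, as does Klk1, whose promoter is not shown, and 0 of the 12 promoters held TGACNTCA.

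Sertoli cell markers fell in 2 of 27 measured members and rose in 0, against 3.44% and 5.04% of all genes. Their median of -0.15 became 0.06 within the slide that held both ages. Amh, the anti-Müllerian hormone of immature Sertoli cells, went from -4.60, -4.25 and -3.91 to -4.90, -4.71 and -4.51, a difference of -0.44 (SE 0.09, adjusted p = 0.0179) with overlap. Fshr, the receptor for follicle-stimulating hormone, differed by -0.28 (adjusted p = 0.0462), and by -0.02 within that slide. Of 20 retinoid genes, Rarg, a retinoic acid receptor, fell by 0.61 (adjusted p = 0.0234), yet within that slide it differed by 0.13.

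Some genes of the extracellular matrix fell. Of 27 measured members of that list, 4 fell and 0 rose, against 3.44% and 5.04% of all genes. The median was -0.38, with 24 below 0, -0.30 in the arrays labelled wild type, -0.47 in those labelled knockout and -0.22 within the slide that held both ages. Col4a1, a chain of basement membrane collagen, went from -0.14, 0.10 and 0.36 to -0.68, -0.34 and -0.23, a difference of -0.50 (SE 0.10, adjusted p = 0.0155) with no overlap. Eln, elastin, differed by -0.74 (adjusted p = 0.0204), Bgn, the proteoglycan biglycan, by -0.57 (adjusted p = 0.0245) and Timp1, an inhibitor of matrix proteases, by -0.55 (adjusted p = 0.0206). Without 1 array 2 to 6 fell, with 2 when day 60 knockout replicate 3 was left out. The collagens as a family, chosen after their values were seen, had 3 falls and 3 rises among 40 measured genes and a median of -0.09. Col4a1, Col22a1 (-0.42) and Col4a3 (-0.42) fell, while Col23a1 (0.70, with no overlap), Col20a1 (0.55) and Col16a1 (0.30) rose. The 14 peritubular and smooth muscle markers had 0 calls in limma (2 higher and 2 lower at an unadjusted p under 0.05) and a median of -0.16, with Tpm1 at -0.33 (adjusted p = 0.0839) and Actg2 at 0.31 (adjusted p = 0.0839).

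Blood vessel and blood cell genes gave few calls, to be read beside the 5.04% of all genes that rose and the 3.44% that fell. Of 16 endothelial markers, Egfl7 (0.30, adjusted p = 0.025) and Vwf (0.37, adjusted p = 0.0169) rose, and the median was 0.03. Of 19 macrophage and antigen presentation genes, Ctss, a lysosomal protease, fell by 0.47 (adjusted p = 0.0424) and Aif1 rose by 0.38 (adjusted p = 0.0368), with a median of -0.21. Of 6 red blood cell markers, Hbb-bt, a beta globin, rose by 1.08 (SE 0.29, adjusted p = 0.0464). It lay at 1.22 to 1.89 on the day 40 arrays labelled wild type, 2.19 to 2.54 on those labelled knockout and 2.55 to 3.88 at day 60, so its difference was 1.86 under the first label and 0.30 under the second (interaction adjusted p = 0.137). The 21 interferon response genes and the 18 adipocyte markers had 0 calls in limma, with medians of -0.17 for both, and at an unadjusted p under 0.05 there were 0 and 2 members. Adipocyte genes varied widely between arrays, from -2.39 to -0.30 in mean level at day 40 and from -2.84 to 0.56 at day 60, where knockout replicate 2 was the highest. Without that array the list's median was -0.45 and 3 members fell. Their part in the other differences was not tested. Within the slide that held both ages the medians of the peritubular, interferon, adipocyte and epididymis lists were 0.03, 0.08, 0.37 and 0.19. Of 10 epididymis markers, Cst8, a cystatin that is also made in germ cells, rose by 0.44 (adjusted p = 0.0484).

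Further lists held some calls, in both directions for the imprinted and the stress genes. Among all genes, 5.04% rose and 3.44% fell. Of 29 glutathione and antioxidant genes, 5 rose, against 5.04% of all genes: Prdx4, a peroxiredoxin (0.59, adjusted p = 0.0106), Gpx4, the selenoprotein that is also a structural part of sperm (0.30, adjusted p = 0.0286), the glutathione transferases Gstm5 (0.33, adjusted p = 0.0275) and Gstp1 (0.31, adjusted p = 0.0217), and Gsr, glutathione reductase (0.29, adjusted p = 0.0457). In that list 0 members fell, and 1 to 4 rose when 1 array was left out. Its median was 0.05, and 0.01 within the slide that held both ages. Of 13 imprinted growth genes, Cdkn1c, an inhibitor of cyclin-dependent kinases, rose from 1.90, 2.27 and 2.71 to 2.81, 2.90 and 3.26 (difference 0.71, SE 0.10, adjusted p = 0.00724). Peg3 and Ndn fell by 0.35 and 0.34 (adjusted p = 0.0250 and 0.0488). Of 24 immediate-early and stress genes, Egr1 and Egr2 fell by 0.45 and 0.50 (adjusted p = 0.0222 and 0.00724) and Btg2 rose by 0.37 (adjusted p = 0.0352).

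**Figure D4:**
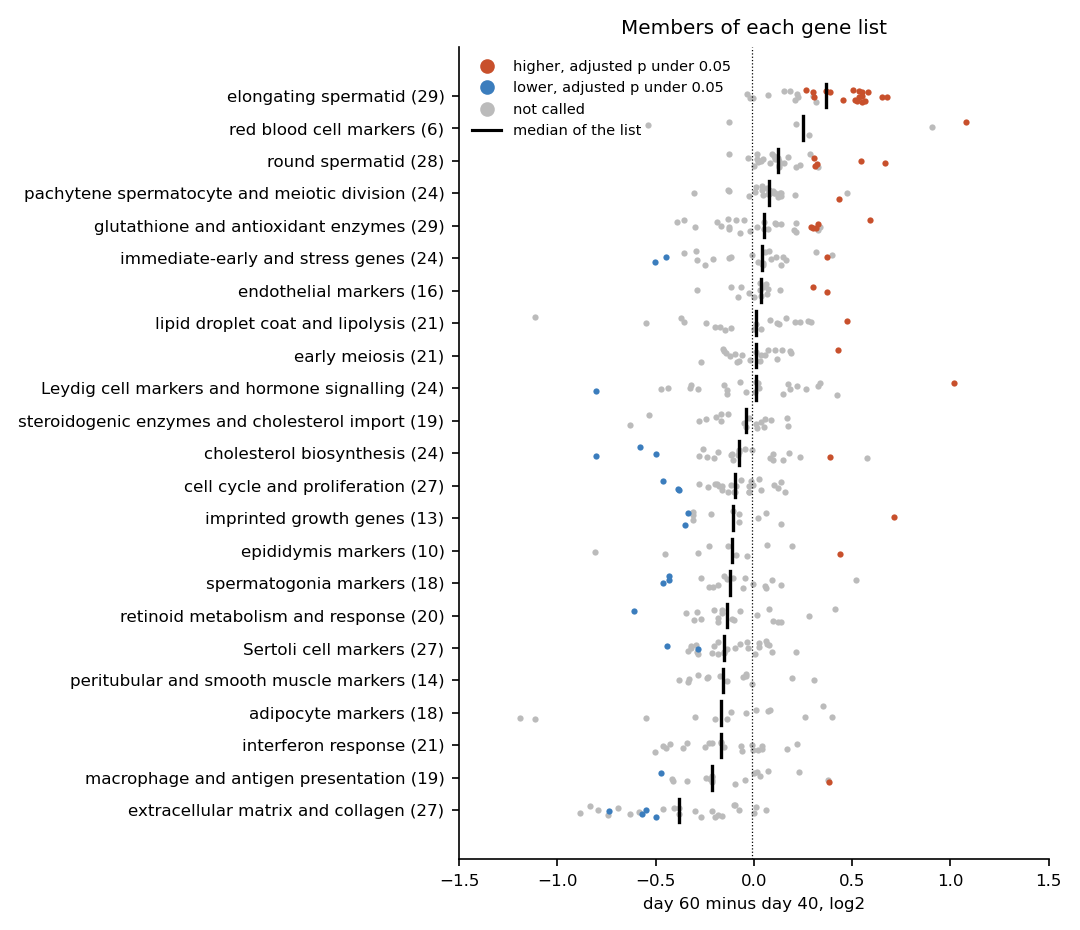
Difference between day 60 and day 40 (log2, horizontal) of each measured member of 23 gene lists (vertical, number measured in brackets), in orange for members that rose, blue for members that fell and grey for the rest, with a black bar at the list's median and a dotted line at the median of all genes. The elongating spermatid list has the highest median, 0.37, and the extracellular matrix list the lowest, -0.38; 4 adipocyte markers beyond -1.5 are not drawn.

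The genes with the largest changes were mostly dim. Sall3, a zinc finger transcription factor, rose the most among genes above background at day 60 and without overlap, from -6.41, -6.13 and -5.68 to -4.57, -4.15 and -3.39 (difference 1.996, SE 0.20, adjusted p = 0.00331), by 1.87 under the wild-type label and 2.12 under the knockout label. Gm11545 (1.502), Unc5a, a netrin receptor (1.27), Hbb-bt, Ttc9b (1.02), Ptgds, Klk1b16, Clec4d, a lectin of myeloid cells (0.997), and Psd4 (0.90) came next. Pramel29, of the PRAME-like family (0.89), Klk1b9, Nfe2, an erythroid transcription factor (0.87), Odf3b, of the outer dense fibre family (0.86), Sigirr, which dampens interleukin receptor signalling (0.85), and Slamf9 (0.83) completed the 15. Odf3b was the brightest of the last group, at 2.46, 2.97 and 3.34 on the day 40 and 3.52, 3.71 and 4.20 on the day 60 arrays. Some of these rises were unlike under the labels. The mean of Ttc9b went from -4.24 to -3.80 under the wild-type label and from -5.11 to -3.50 under the knockout label. That of Gm11545 went from -4.46 to -3.63 and from -5.80 to -3.62, and Ptgds also rose more under the knockout label. Hbb-bt, Clec4d, Klk1b9, Nfe2 and, slightly, Pramel29 rose more under the wild-type label.

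The largest falls were mostly of dim genes too. Gpr183, a receptor for oxysterols, went from -4.92, -4.63 and -4.41 to -6.37, -6.20 and -5.05 (difference -1.31, SE 0.21, adjusted p = 0.00881). Ch25h, which makes 25-hydroxycholesterol, differed by -1.13 (adjusted p = 0.0175) and was above background on 5 of 6 day 60 arrays. Hpgds, the haematopoietic prostaglandin D synthase, differed by -0.78 (adjusted p = 0.0403), while Ptgds, the other synthase of that prostaglandin, rose. P2ry13, an ADP receptor, differed by -1.30, Ahsg, the plasma protein fetuin-A, by -1.25, Tbx3, a T-box transcription factor, by -0.96, and Cd276, an immune checkpoint protein, by -0.86. Tbx3 was the brightest of the falls, at -1.15, -0.88 and -0.58 on the day 40 and -2.47, -1.82 and -1.31 on the day 60 arrays. A930004D18Rik (-0.83), Lrrn4cl (-0.81) and the olfactory receptor Olfr531 (-0.79) were above background on all 12 arrays. Colgalt2 (-1.001) and Olfr659 (-0.86) were above background on 1 of 6 day 60 arrays. Stc1, the hormone stanniocalcin, and Pdzd3 were above background on 0 of 6. For them the dimmest probe above background on each day 60 array was taken as a floor. With that floor and the main processing, Stc1 was at least 1.77-fold and Pdzd3 at least 1.40-fold higher at day 40. These bounds do not hold under every alternative. Colgalt2 and Pdzd3 differed by 0.02 and 0.07 after normexp background correction. The smallest falls over the alternatives were -0.04 for Stc1, -0.02 for Olfr659 and -0.06 for P2ry13. Olfactory receptors as a family, chosen after their values were seen, had 56 falls and 7 rises among 418 measured genes, against 3.44% and 5.04% of all genes, and a median of -0.35. The family's median level was -6.13, and among all genes below a level of -6 the median difference was -0.20 and 9.8% fell. Within the slide that held both ages that median was 0.01.

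The change was then read separately under each label, in sets that share no array. Under either label no slide held both ages, so these changes cannot be told apart from differences between slides. With the spread pooled over the 4 groups, 197 probes (0.573%) changed in the arrays labelled wild type, 0.235% upwards and 0.337% downwards. In those labelled knockout 2010 (5.84%) changed, 3.2% upwards and 2.64% downwards. Of the 197, 65.0% differed in the same direction under the other label and 43 were called in both, which is 21.8% of the shorter list and 2.14% of the longer. Of the 2010, 78.7% had the same direction under the wild-type label. The knockout count was 1 or 2 without day 40 knockout replicate 1 or 3 or day 60 knockout replicate 3, 45 without day 60 knockout replicate 2, 46 and 875 without day 60 wild-type replicates 3 and 2. The wild-type count fell to 24, 55, 29 and 61 without day 40 replicates 2 and 3 and day 60 replicates 1 and 2 of that label, and to 101 to 126 without day 40 knockout replicate 1 or 2 or day 60 knockout replicate 1 or 3. Neither count is therefore a stable measure of how much changed under a label, and the difference between them was tested only as the interaction.

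By the interaction in limma, the change with age differed between the labels in 54 probes (0.157%). The slide that held both ages held only day 60 knockout and day 40 wild-type arrays, which enter the interaction with the same sign. The other slides held mostly arrays of the opposite sign, so slide and interaction can hardly be told apart. No interaction was fitted with slide as a fixed block, and slide as a random block gave 2997 probes. The change was more positive under the knockout label in 48 (0.139%) and more negative in 6 (0.0174%). By gene, 18 of 16686 (0.108%) passed, 15 (0.0899%) more positive and 3 (0.018%) more negative. The same arrays gave 5817 probes at an unadjusted p under 0.05. In some of these genes the arrays of 1 label at day 40 stood apart from all others. Cldn12, a claudin, was at -1.16, -1.10 and -1.16 on the day 40 arrays labelled wild type and between -2.93 and -2.45 on all other arrays, an interaction of 1.52 (SE 0.18, adjusted p = 0.0215). Vsig4, a complement receptor of macrophages, was at -2.76, -2.77 and -2.93 on the day 40 arrays labelled knockout and between -3.91 and -3.42 elsewhere (interaction -0.97, adjusted p = 0.03825). Fam83e was at 1.43, 1.20 and 1.25 on the day 40 wild-type arrays and between 2.25 and 2.86 elsewhere (interaction -1.31, adjusted p = 0.03825). Meak7 (1.43), Nat3, an N-acetyltransferase (1.33), Defb7, a defensin (1.36), and Agmo, which cleaves ether lipids (0.96), had adjusted p-values of 0.0346 to 0.0361, and Islr2 (-2.63) had 0.03825. Islr2 was above background on 4 of 6 day 40 arrays. Klhl42 (adjusted p = 0.054) and Elf2 (adjusted p = 0.059) did not pass. The count of 54 was 2 to 8 without any 1 of 9 arrays, 227 without day 40 wild-type replicate 3, and 36 and 47 without day 60 knockout or wild-type replicate 3. The 9 were day 40 wild-type replicates 1 and 2, the 3 of day 40 knockout, day 60 wild-type replicates 1 and 2 and day 60 knockout replicates 1 and 2.

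**Figure D5:**
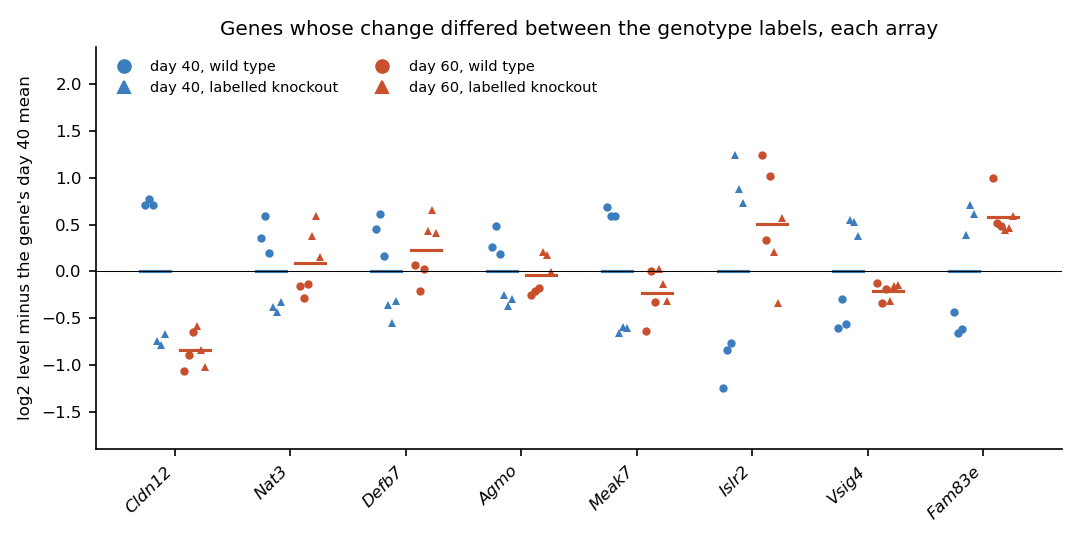
Level of 8 genes on each of the 12 arrays, as log2 level minus the gene's day 40 mean (vertical), in blue for day 40 and orange for day 60, with circles for arrays labelled wild type, triangles for arrays labelled knockout and a bar at the mean of each age. The labels separate at day 40 in all 8 genes; in Cldn12, Meak7, Vsig4 and Fam83e they overlap at day 60.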

How the data were processed

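RNA was read on Agilent single-colour (Cy3) arrays. The deposited files hold the processed signal, a linear intensity with background subtracted by the authors' scanner software and no scaling between arrays. That software was Feature Extraction, version 10.7.3.1 per the file headers and 9.1 per the submitters' processing notes. Intensities in the deposited series table were identical (largest difference 0). Control spots and outlier spots were left out, each probe's spots were averaged on the log2 scale, and each array's 75th percentile was subtracted. Testing required a signal well above background in every array (3) of 1 or more of the 4 groups. Symbols came from matching the files' accessions to RefSeq, and 24486 of the 34409 tested probes had one. No spot was saturated.

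Day 60 minus day 40 was fitted with limma 3.58.1 (R 4.3.3; lmFit, eBayes, two-sided) with genotype as a factor, and the changes per label and their interaction on the 4 group means. All adjusted p-values are Benjamini-Hochberg over the 34409 probes, called under 0.05. "Rose" and "fell" mean called. Differences are log2, with limma's SE. Gene lists are described by counts and medians, with no test of the list. The fits were tested on simulated data.

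The comparison, the 23 gene lists and the rules were chosen with earlier results of these data known. Genes named were the 15 largest rises and 15 largest falls among called, non-overlapping genes above background at the higher age (where fewer pass, those of smallest p up to 10), called list members (at most 6, or the 3 largest each way; the 2 of smallest p where none was called), 14 steroid, spermatid and Sertoli genes, and the 5 of smallest interaction p in each direction. Other members of the elongating spermatid list, the Klk1b kallikreins, the collagens and the olfactory receptors were added after their values were seen. Alternatives were other background, scaling, filter, sample, block and variance choices, and leaving out each array. Replicate numbers were taken from the titles. They were not treated as pairs. Within a label, deviations of same-numbered arrays of the 2 ages from their group means correlated at -0.129 to 0.475. Those of differently numbered arrays correlated at -0.363 to 0.302. With 3 arrays in a group, these values cannot settle whether the numbers pair the arrays. Probes without a symbol were counted but not named, and some genes that the rule selects are not reported here.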

Additional observations from a re-analysis of the deposited data

Results flagged for a closer look

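Some arrays stood apart from the other 5 of their age, by a gap to the nearest array that exceeded Dixon's critical value as a share of the range. That happened in 4 of 46 list and age groups and 10 of 198 gene and age groups, where chance gives about 1 in 20. Day 60 knockout replicate 2 was high in adipocyte markers (mean level 0.56), lipid droplet genes (0.65) and endothelial markers (-1.52), and stood apart for Pmvk (1.84), Gbp2 (-2.73) and Gstm5 (7.04). Day 40 wild-type replicate 3 was high in interferon response genes (-2.06). Single arrays of day 60 stood apart for Ahsg (-3.72, wild-type replicate 3), Cebpa (-4.14, wild-type replicate 1), Fam83e (2.86, wild-type replicate 1), Cyp17a1 (3.91, wild-type replicate 2) and Lhcgr (-4.73, wild-type replicate 2). At day 40 the low array was wild-type replicate 2 for Tnp1 (6.95), and knockout replicate 1 stood apart for Lrrn4cl (-3.69).

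The change with age differed between the labels, by the interaction in limma, in 8 named genes. Slide was not separated from the interaction. The change under the knockout label minus that under the wild-type label was 1.52 for Cldn12, 1.33 for Nat3, 1.36 for Defb7, 0.96 for Agmo, 1.43 for Meak7, -2.63 for Islr2, -0.97 for Vsig4 and -1.31 for Fam83e. In all 8 the labels did not overlap at day 40.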

How the results depend on the processing

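The counts of called probes moved with most choices, while few of the called named genes changed direction. Beside the reported 2772 (1317 higher, 1455 lower), 54 for the interaction, 197 for wild type and 2010 for knockout, the alternatives that moved a count by over 1.5 times were these. Normexp background correction gave 1998 higher, 517 lower, 115 for the interaction and 330 for wild type. Median scaling gave 2356 higher and 779 lower. Quantile normalization gave 1293 in all, 346 lower and 127 for wild type. No filter on dim probes gave 1685 (871 higher, 814 lower), 8, 86 and 12, and requiring signal on all 12 arrays gave 143 for the interaction and 323 for wild type. All 18 arrays in 1 fit gave 289 (175 higher, the rest lower), 0, 0 and 1. Arrays of 1 label alone gave 10 (1 higher, 9 lower) for wild type and 4 (0 higher, 4 lower) for knockout. No genotype factor gave 942 lower. Slide as a fixed block gave 0 in each direction, and slide as a random block gave 2997, 4331 and 9680 for the interaction, wild type and knockout. Array quality weights gave 5749 (2185 higher, 3564 lower), 100, 451 and 3368, and a variance trend gave 160 for the interaction and 598 for wild type. With the replicate block, 2157 probes passed, with 4, 75 and 1147 for the other 3 counts. Whether arrays of the same replicate number are paired is not known. Leaving out 1 array gave 815 to 4729 in all, 451 to 1974 higher, 364 to 2755 lower, 2 to 227 for the interaction, 24 to 266 for wild type and 1 to 2372 for knockout; the arrays concerned are named with these counts in the report. Among named genes called in the main fit or in the alternative, the direction turned for Colgalt2 (0.0203) and Pdzd3 (0.0653) with normexp and Prm1 (-0.0084) with quantile normalization. It also turned for Rarg with slide as a fixed block (0.16) and within the slide that held both ages (0.13). Sign changes of genes called in neither were not counted. Such genes included Prm2 (-0.07 to 0.42 over the alternatives) and Star (-0.07 to 0.42). The cause was not tested. Of 99 named genes, 90 kept their side of the threshold with median scaling, 74 with quantile normalization, 45 with all 18 arrays and 26 with slide as a fixed block. Normexp on the median spot signal, the per-label counts under each setting, and median scaling and the 12-array filter for the interaction were added after seeing the data. Of the probes that fell, 16.5% were not above background on all 12 arrays.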
